A study of Mus musculus with 4 samples.

Results

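Long noncoding RNAs of mouse pancreatic islet cells were followed through 6 listed gene symbols, A330008L17Rik, Gm6999, Gm17660, D030068K23Rik, Neat1 and Malat1, of the 21594 symbols in the matrices. All 6 were found in every sample. A330008L17Rik, Gm6999 and Gm17660 were selected on their counts in insulin-high cells, where they had passed the comparison of mutants with controls, so their values in that comparison are a description and carry no test. The annotation gives the type long noncoding RNA to 5 of the 6. Gm17660 is protein-coding in GENCODE vM21 and in RefSeq, which lists the synonym Scpppq1, and is described with the others under that limit.

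Single-cell RNA was counted by an inDrops method in dissociated islets of 2-month-old mice. The mutant samples (n = 2) came from Atf4F/F; Ins1Cre mice, in which the transcription factor gene Atf4 is floxed and Cre recombinase is driven by Ins1, an insulin gene, so that the deletion is directed to beta cells. The control samples (n = 2) came from Atf4F/F mice with the same floxed alleles and no Cre, so an effect of Cre itself and an effect of Atf4 loss cannot be told apart. Each sample was a pool of islets from several mice, of both sexes by the design text, and beta cells positive and negative for tdT went through the procedure together.

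Long noncoding RNAs are transcribed and mostly spliced like messenger RNAs but are not translated, and many are restricted to few cell types. Malat1 is retained in nuclear speckles, bodies that store splicing factors. Neat1 is the scaffold of paraspeckles, nuclear bodies of RNA-binding proteins, and its long isoform is the one that builds them. Islets hold insulin-producing beta cells, glucagon-producing alpha cells, somatostatin-producing delta cells and pancreatic polypeptide (PP) cells, and Atf4 raises genes of amino acid supply and of the stress response.

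A330008L17Rik spans chr8:99416642-99733438 on the plus strand (GENCODE vM21, GRCm38, the assembly also called mm10). It starts head to head with Cdh8, the gene of a cadherin, a cell adhesion protein. The RefSeq promoter window of A330008L17Rik (GRCm38.p6, chr8:99416424-99416723, plus strand) is shown because a pair of genes with unlike values in these cells share it. Capitals mark the 170 bases between both annotated starts.
A330008L17Rik promoter: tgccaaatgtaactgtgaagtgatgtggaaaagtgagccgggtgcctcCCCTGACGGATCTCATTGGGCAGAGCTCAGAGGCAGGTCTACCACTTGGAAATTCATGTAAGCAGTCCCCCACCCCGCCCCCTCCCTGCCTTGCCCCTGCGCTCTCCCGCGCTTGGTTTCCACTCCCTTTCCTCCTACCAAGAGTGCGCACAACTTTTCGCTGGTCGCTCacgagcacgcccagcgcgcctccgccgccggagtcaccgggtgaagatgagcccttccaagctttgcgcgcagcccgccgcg

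D030068K23Rik lies on the same chromosome and strand, at chr8:109075222-109273811. Gm6999 spans chr14:79836712-80006326 on the plus strand and overlaps Olfm4, a secreted glycoprotein gene on that strand. Gm17660 lies at chr5:104070064-104077608 on the minus strand. Malat1 (chr19:5795690-5802672) and Neat1 (chr19:5824708-5845478) are neighbours on the minus strand.

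The ends of Malat1 and Neat1 are shown because they differ from those of most transcripts. Malat1 and the long isoform of Neat1 end without a poly(A) tail, in a triple helix of U-rich stretches, written here with T, and an A-rich tract of the genome, all in capitals. In the short isoform of Neat1 the capitals mark the poly(A) signal AATAAA. The stretches are bases 6584 to 6703 of the 6983 bases of Malat1, the last bases from 20662 of the 20771 of the long Neat1 and from 2945 of the 3004 of the short Neat1 (GENCODE vM21).
Malat1: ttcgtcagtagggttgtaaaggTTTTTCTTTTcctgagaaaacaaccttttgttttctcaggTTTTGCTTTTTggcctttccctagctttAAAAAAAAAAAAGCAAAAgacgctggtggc
Neat1, long isoform: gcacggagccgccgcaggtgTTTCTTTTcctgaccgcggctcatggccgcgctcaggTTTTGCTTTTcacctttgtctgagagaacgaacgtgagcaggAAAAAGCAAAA
Neat1, short isoform: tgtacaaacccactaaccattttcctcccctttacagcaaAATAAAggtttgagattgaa

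The matrices held 11114 barcodes and 63545861 counts of unique molecular identifiers (UMIs), 13706563 to 17655893 per sample. Barcodes kept had 500 genes or more and a mitochondrial share under 20%, 6995 in all, with medians of 5186 to 5787 UMIs, and 391 barcode sequences were shared, summed over pairs of libraries. Cells were insulin-high, glucagon-high, somatostatin-high or PP-high when 1 hormone alone passed its share of the UMIs (5.01, 0.501, 0.316 and 0.126%), and 2382 cells past more than 1 share were left out. The samples held 752 to 1178 insulin-high cells and 92 to 179 glucagon-high cells, but 9 to 13 somatostatin-high and 10 to 37 PP-high cells. Classes by the largest hormone, added once these sizes were known, held 50 to 82 somatostatin-high and 14 to 39 PP-high cells. Beta cell markers other than hormones summed to 7655 to 8595 CPM (counts per 1000000 UMIs) in mutant and 6181 to 7298 CPM in control insulin-high cells, against 1434 to 1575 CPM in mutant and 1014 to 1231 CPM in control glucagon-high cells, and the beta cell factor Mafa was at 0 in insulin-high cells of mutant 2 and control 1.

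Below, a pair of values gives sample 1 and then sample 2 of a group, and intervals are exact 95% Poisson or binomial intervals that cover counting error only. Atf4 itself stood at 2.62 and 121 CPM in the mutant insulin-high cells, against 338 and 371 CPM in the control ones, so the library labelled mutant 2 kept part of its Atf4 RNA. In glucagon-high cells Atf4 stood at 223 and 262 CPM in the mutants, against 395 and 300 CPM in the controls. Acinar markers, from digestive enzyme genes, also moved with the group in insulin-high cells. By edgeR's quasi-likelihood test 9 of 13 (69.2%) were lower in the mutants and 0 higher, against 0.216% lower and 0.528% higher of all 13435 genes. The markers summed to 48.2 and 60.8 CPM in the mutants against 170 and 259 CPM in the controls, with 0 of 13 absent in any sample. Their part in the values below was not tested.

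A330008L17Rik had the largest log2 change between the groups among the 6, in insulin-high cells. These held 105 and 80.1 CPM in the mutants, against 10.1 and 15.4 CPM in the controls, from 922 and 740 UMIs in the mutants and 110 and 170 UMIs in the controls. Both mutants lay far above both controls. The means were 92.7 ± 17.75 CPM in mutants and 12.8 ± 3.78 CPM in controls (SD, n = 2 each), 7.26-fold higher in mutants, with a log2 change of 2.73 ± 0.19 (SE). As background, 100 of 13435 genes tested in insulin-high cells passed (0.744%; 0.528% higher and 0.216% lower in mutants), and 47.8% had both mutants on one side of both controls.

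Most deep mutant cells held A330008L17Rik. Of insulin-high cells above 8000 UMIs, a depth chosen with the data in view, 25.3% (21.0 to 29.9%) and 34.3% (29.9 to 38.9%) in the mutants had no count of it, against 85.2% (81.7 to 88.2%) and 76.1% (72.1 to 79.8%) in the controls. No mutant cell exceeded 14 counts and no control cell exceeded 4. With each cell thinned to 2000 UMIs, 17.5% and 12.9% of mutant insulin-high cells kept a count, against 2.18% and 2.74% of control ones, while unthinned the shares were 51.1% and 44.3% of mutant cells and 7.89% and 14.7% of control cells.

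Glucagon-high cells showed no such separation of the groups. A330008L17Rik stood there at 14.5 and 7.2 CPM in the mutants and at 6.1 and 15.3 CPM in the controls, from 3 to 9 UMIs per sample, and the groups overlapped. It did not pass the filter on low counts in this class. By the largest hormone it did, and the log2 change came to −0.17 ± 0.60 (SE; edgeR adjusted p = 0.957, 2 samples a group), an SE too wide to show a small difference. The somatostatin-high cells by the largest hormone held 8.6 and 21.6 CPM in the mutants, against 35.4 and 11.7 CPM in the controls, and overlapped too.

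In control islets A330008L17Rik was not a transcript of insulin-high cells in particular. Glucagon-high cells of the controls averaged 10.7 ± 6.53 CPM and insulin-high cells 12.8 ± 3.78 CPM (SD, n = 2 each), which overlapped. In the mutants glucagon-high cells averaged 10.8 ± 5.13 CPM and insulin-high cells 92.7 ± 17.75 CPM. No test of the classes is given for this gene, since the class difference holds the contrast that put it on the list.

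**Figure D1:**
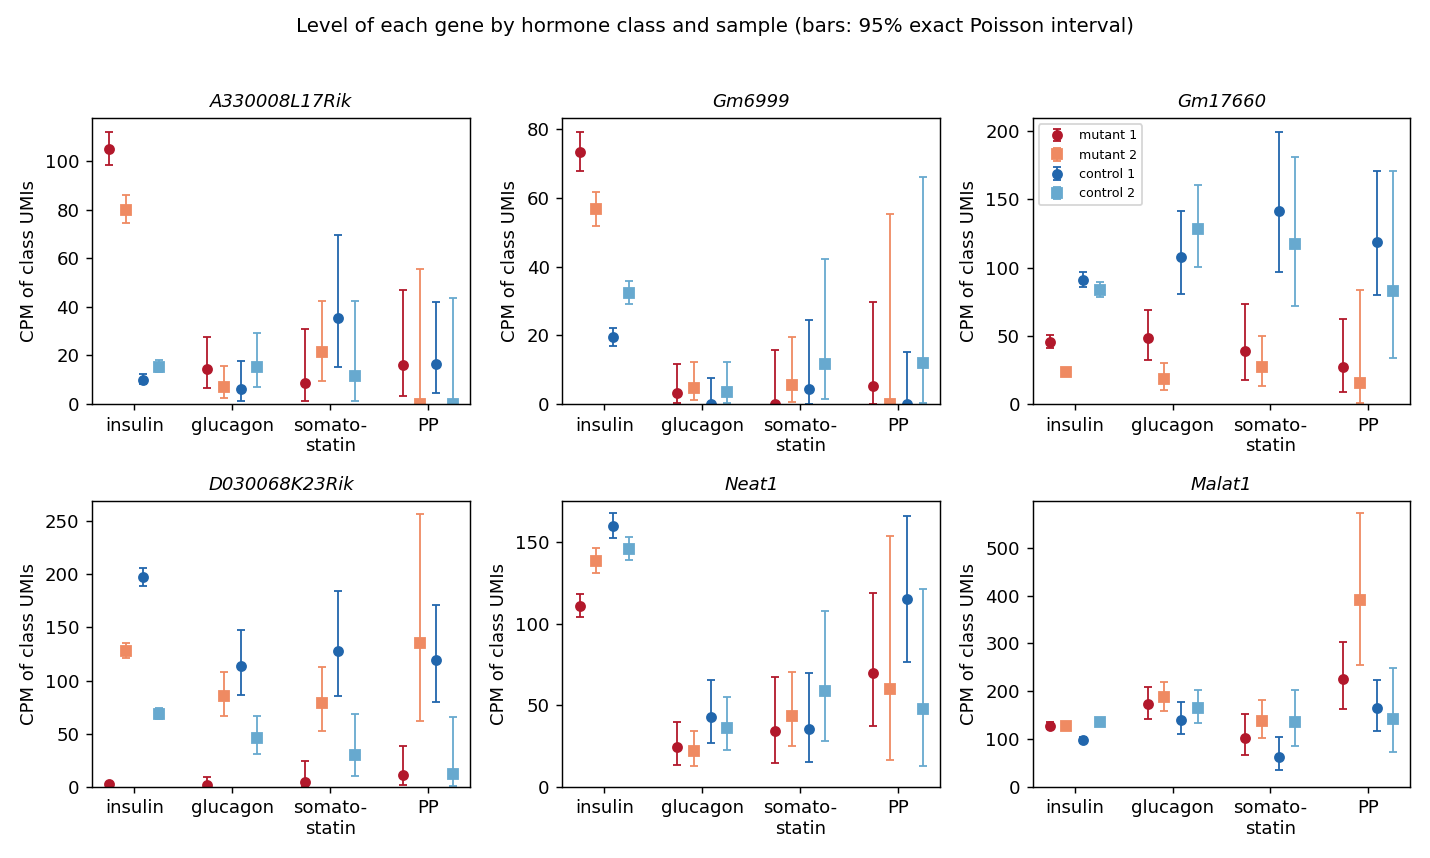
Level in CPM of each gene by hormone class and sample, with 95% Poisson intervals; insulin-high and glucagon-high cells follow the hormone shares, somatostatin-high and PP-high cells the largest hormone. A330008L17Rik and Gm6999 separate the groups in insulin-high cells, and Gm17660 is lower in the mutants in all 4 classes.

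Within mutant 2, A330008L17Rik stood at like levels in cells with at least 3 Atf4 counts and in cells with none. The cells between these limits, among 446 insulin-high cells above 8000 UMIs, were not compared. The 135 insulin-high cells above 8000 UMIs with at least 3 Atf4 counts held 92.9 CPM (81.6 to 105), and the 229 cells with none held 86.7 CPM (77.7 to 96.4), a ratio of 1.07 (0.905 to 1.27). Control cells with at least 3 Atf4 counts held 11.7 CPM (9.26 to 14.5) and 15.96 CPM (13.3 to 19.04). The Atf4-positive cells of mutant 2 thus lay near its Atf4-negative cells and above the controls' Atf4-positive ones. The sexes of these cells were uneven: 84.4% of the Atf4-positive cells of mutant 2 had a Y-linked count and no Xist, against 28.4% of its cells with no Atf4 count. Their depth differed too, with medians of 17972 UMIs in the Atf4-positive cells and 15159 UMIs in those with none. The part of depth was not tested. Among cells with a Y-linked count and no Xist the ratio was 0.918 (0.721 to 1.17).

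**Figure D2:**
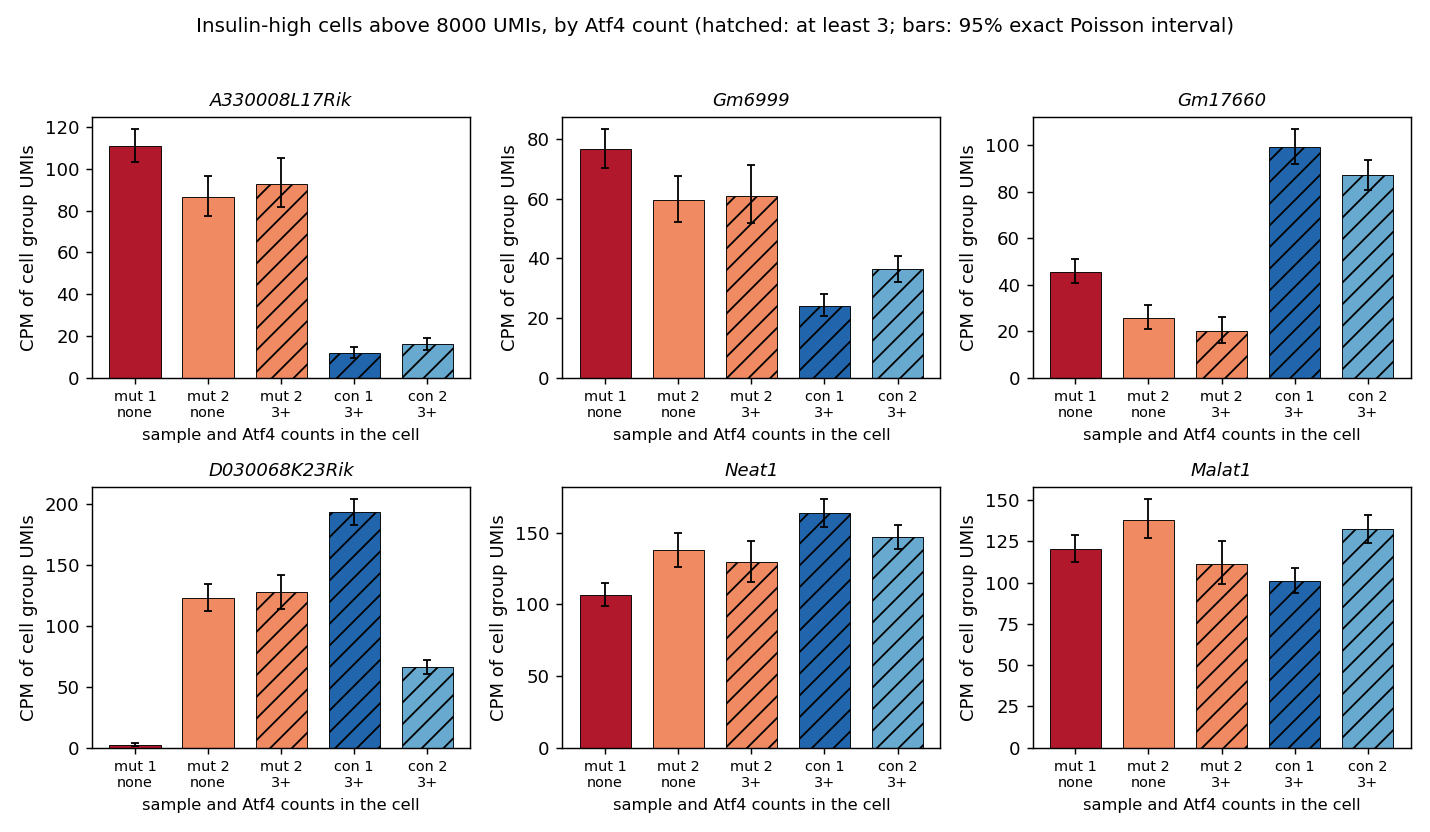
Level in CPM of each gene in insulin-high cells above 8000 UMIs, for cells with no Atf4 count in the mutants and cells with at least 3 in mutant 2 and the controls, with 95% Poisson intervals. The Atf4-positive cells of mutant 2 held A330008L17Rik at 92.9 CPM, near its Atf4-negative cells at 86.7 CPM.

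Cdh8, at the other side of the shared start region, stood at 122 and 145 CPM in mutant insulin-high cells and at 130 and 105 CPM in control ones. These groups overlapped, and their log2 change came to 0.06 ± 0.17 (SE; edgeR adjusted p = 0.906). Over the 16 sums of sample and hormone class, the genes most like A330008L17Rik among 6685 were Dapl1 (Pearson's r = 0.945), E2f3, a cell cycle transcription factor gene (0.891), and Desi1 (0.863). The sums share libraries, so these values are descriptions.

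Gm6999 was counted mainly in insulin-high cells, in both groups. Glucagon-high cells held 2 and 4 UMIs of it in the mutants and 0 and 2 UMIs in the controls, or 3.2 and 4.8 CPM in the mutants and 0 and 3.4 CPM in the controls. Insulin-high cells held 73.5 and 56.7 CPM in the mutants, against 19.4 and 32.3 CPM in the controls. Glucagon-high cells were lower in 4 of 4 samples. As for A330008L17Rik, no test of the classes is given, since the insulin-high counts put the gene on the list and carried it past the filter on low counts.

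The other endocrine classes held traces of Gm6999. PP-high cells held 1 UMI in all. Somatostatin-high cells held none, which allows up to 3 UMIs of 175692. Those of the controls had 44218 and 32929 UMIs of all genes, too few to exclude the level of control insulin-high cells. By the largest hormone somatostatin-high cells held 5 UMIs of 1000727, with a mean of 5.39 CPM over the samples. Endothelial-like and macrophage-like cells held no UMI of Gm6999 in any sample, with 311957 and 280726 UMIs in all.

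Between the groups, insulin-high cells averaged 65.1 ± 11.8 CPM of Gm6999 in mutants and 25.9 ± 9.12 CPM in controls (SD, n = 2 each), a log2 change of 1.21 ± 0.20 (SE) in the contrast that chose it. In mutant 2 the ratio of cells with at least 3 Atf4 counts to cells with none was 1.03 (0.834 to 1.26). Olfm4, on the same strand, stood at 0.913 and 0.650 CPM in the mutants and at 0.0917 and 0.363 CPM in the controls, far below Gm6999. The most similar genes over the 16 sums were Ucn3, a peptide hormone gene of mature beta cells (r = 0.873), Cox6a2, a respiratory chain gene (0.851), and Ins2, an insulin gene (0.833).

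Gm6999 was higher in cells that held Xist, the RNA that silences an X chromosome in female cells. Insulin-high cells above 8000 UMIs with Xist but no Y-linked count held 101 and 70.4 CPM in the mutants, against 31.9 and 53.2 CPM in the controls. Those with a Y-linked count but no Xist held 54.5 and 56.2 CPM in the mutants, against 13.4 and 14.9 CPM in the controls. The Xist cells were higher in 4 of 4 samples, and the intervals did not overlap in mutant 1, control 1 and control 2. Both mutants were above both controls within either kind of cell. The split was chosen with the data in view and is given with no test. A330008L17Rik held 101 and 81.3 CPM in the mutants' Xist cells and 110 and 88.3 CPM in their Y-linked cells, with overlapping intervals. In the controls it held 13.1 and 18.6 CPM against 9.40 and 12.0 CPM, again overlapping. D030068K23Rik was higher in the controls' Xist cells, at 208 and 89.8 CPM against 161 and 53.5 CPM, without overlap. In the mutants its intervals overlapped. Malat1 was lower in the Xist cells of mutant 1 (98.8 against 144 CPM) and control 1 (85.8 against 120 CPM). In control 2 it was higher (178 against 106 CPM), as was Neat1 (164 against 132 CPM).

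**Figure D3:**
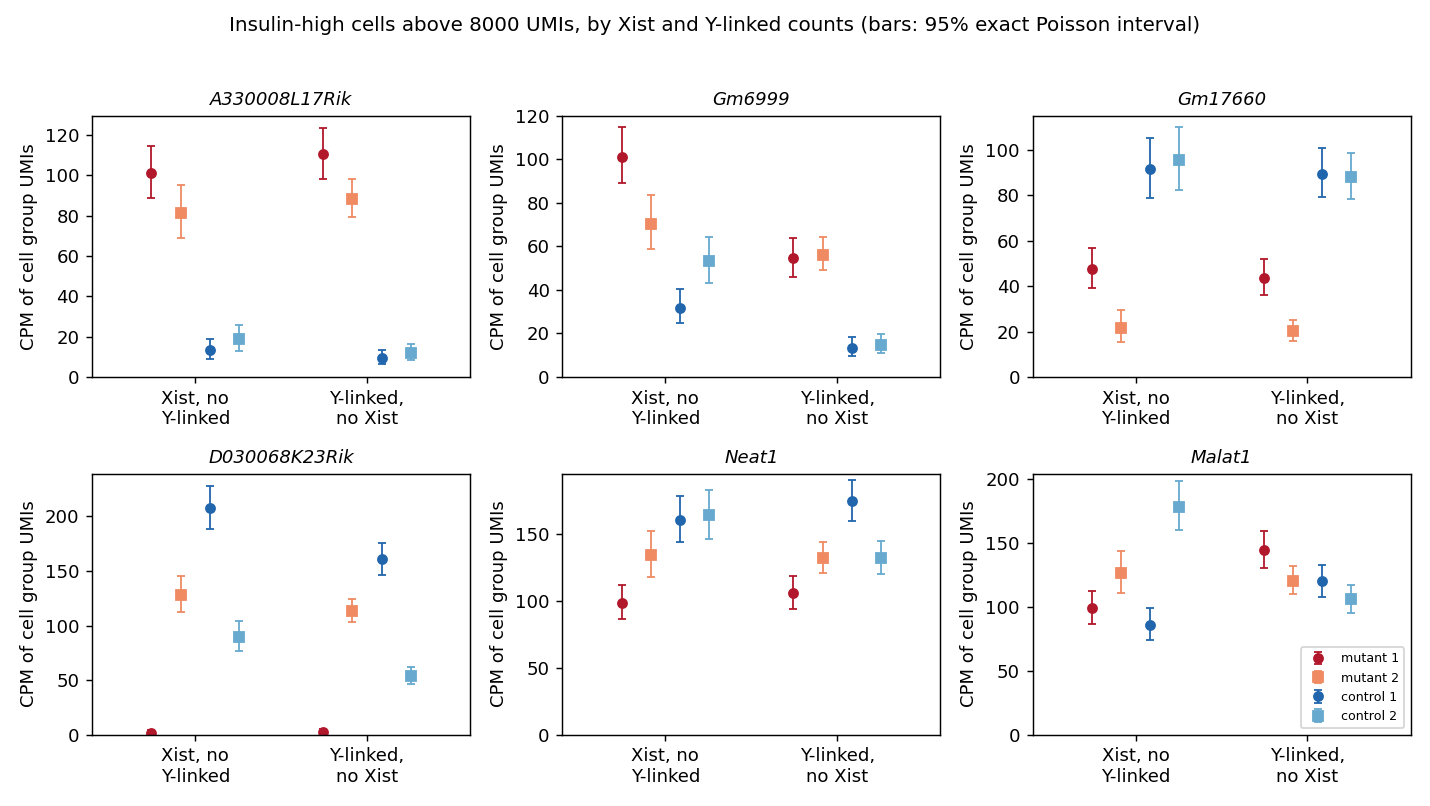
Level in CPM of each gene in insulin-high cells above 8000 UMIs, split into those with Xist but without Y-linked counts and the reverse, by sample, with 95% Poisson intervals. Gm6999 is higher in the Xist cells of all 4 samples.

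Gm17660, the protein-coding gene of the list, was lower in the mutants across cell classes. Insulin-high cells held 45.6 and 23.3 CPM in the mutants, against 91.2 and 83.5 CPM in the controls, a log2 change of −1.48 ± 0.24 (SE) in the contrast that chose it. Glucagon-high cells held 48.2 and 18.0 CPM in the mutants, against 108 and 128 CPM in the controls. The somatostatin-high cells, by the largest hormone, held 38.5 and 27.0 CPM in the mutants, against 141 and 117 CPM in the controls. PP-high cells by that rule held 26.8 and 15.0 CPM in the mutants and 119 and 83.0 CPM in the controls, from 1 to 29 UMIs. Both mutants lay below both controls in each of the 4 classes. As background, 47.8% of genes in insulin-high cells had both mutants on one side of both controls, in either direction. That share was not computed for the other classes.

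Only the insulin-high contrast chose Gm17660, so the other classes were tested. They came from the same pools as that contrast, so these tests are not independent of the choice. The classes by the largest hormone were also added after the data were seen. In glucagon-high cells its log2 change, −1.92 ± 0.33 (SE, 2 samples a group), missed the threshold (edgeR adjusted p = 0.0541), and 2 of 7608 genes passed (0.0263%). By the largest hormone Gm17660 fell in glucagon-high cells (−1.81 ± 0.25, edgeR adjusted p = 0.00213, 0.318% called) and in somatostatin-high cells (−2.05 ± 0.39, edgeR adjusted p = 0.0403, 0.0969% called). In PP-high cells it did not pass (−2.10 ± 0.64, edgeR adjusted p = 0.736, 0.0839% called). Endothelial markers moved with the group in glucagon-high cells, at 225 and 255 CPM in the mutants (1 of 12 absent in each, Cldn5) against 79.4 and 64.8 CPM in the controls (2 and 4 absent), and their part was not tested.

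The log2 difference of Gm17660 between glucagon-high and insulin-high cells was −0.03 ± 0.16 (SE), and 0.24 under library totals as the scaling, given with no test because the insulin-high counts chose the gene. In mutant 2, cells with at least 3 Atf4 counts held 19.96 CPM (14.9 to 26.2) and cells with none 25.7 CPM (20.9 to 31.3), a ratio of 0.776 (0.544 to 1.10), whereas control cells with at least 3 held 99.1 and 86.9 CPM. Of its neighbours, the nucleotide hydrolase gene Nudt9 had a log2 change of 0.38 ± 0.17 in insulin-high cells (SE, edgeR adjusted p = 0.359) and the matrix protein gene Sparcl1 one of −0.05 ± 0.39 (edgeR adjusted p = 0.977). The most similar genes were Vamp2 (r = 0.791), Api5 (0.695) and Cirbp (0.681).

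D030068K23Rik separated samples and not groups. Insulin-high cells held 2.5 and 128 CPM in the mutants and 198 and 68.8 CPM in the controls, so mutant 1 was near 0 and mutant 2 lay between the controls. Glucagon-high cells kept this order, with 1.6 and 85.3 CPM in the mutants and 114 and 46.0 CPM in the controls. By the largest hormone, somatostatin-high cells held 4.3 and 78.3 CPM in the mutants and 128 and 29.3 CPM in the controls. PP-high cells by that rule held 10.7 and 135 CPM in the mutants and 119 and 11.9 CPM in the controls, where mutant 1 and control 2, with 2 UMIs and 1 UMI, cannot be told apart. By the hormone shares, control 2 was at 0 in somatostatin-high and PP-high cells, each with at most 10 cells.

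The log2 change of D030068K23Rik was −1.13 ± 1.05 in insulin-high cells (SE) and −0.74 ± 0.64 in glucagon-high cells (SE, edgeR adjusted p = 0.808). It hung on single libraries: in glucagon-high cells, leaving out mutant 1 gave 0.11, leaving out mutant 2 gave −5.46, leaving out control 1 gave 0.05 and leaving out control 2 gave −1.31. Above 8000 UMIs 95.4% and 22.2% of mutant insulin-high cells had no count, against 16.6% and 38.4% of control ones, and no cell exceeded 1 and 17 counts in the mutant libraries, against 28 and 7 counts in the control libraries. Cells with at least 3 Atf4 counts and cells with none in mutant 2 had a ratio of 1.04 (0.900 to 1.197). Glucagon-high cells were lower than insulin-high cells in 4 of 4 samples (log2 difference −0.95 ± 0.17, SE). Zfhx3, a transcription factor gene to its left, held 63.7 and 67.01 CPM in the mutants and 55.3 and 57.5 CPM in the controls. The most similar genes were Hsf1 (r = 0.820), Tom1 (0.815) and Appl2 (0.804).

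Neat1 was lower in glucagon-high than in insulin-high cells. Glucagon-high cells held 24.1 and 21.6 CPM in the mutants and 42.7 and 35.8 CPM in the controls. Insulin-high cells held 111 and 138 CPM in the mutants and 160 and 146 CPM in the controls. The classes did not overlap, and the log2 difference was −2.47 ± 0.17 (SE, n = 4 samples). Somatostatin-high and PP-high cells differed from insulin-high ones by −1.95 ± 0.41 and −0.98 ± 0.25 (SE). The somatostatin-high levels, 89.9 and 18.5 CPM in the mutants and 45.2 and 60.7 CPM in the controls, came from 9 to 13 cells per sample. Their mean CPM was 0.386 of that of insulin-high cells, and 0.308 by the largest hormone. Class differences of D030068K23Rik, Neat1 and Malat1 carry no test, since the values behind their listing are not recorded. The somatostatin-high cells of mutant 1 also held macrophage markers at 2629 CPM and those of control 2 erythroid markers at 89283 CPM, whose part was not tested.

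Between the groups Neat1 was lower in both mutants than in both controls in the sums of insulin-high cells (log2 change −0.42 ± 0.16, SE). In the values of the depth bins this order did not hold throughout. Insulin-high cells of 16000 UMIs or more held 110 and 136 CPM in the mutants, against 174 and 152 CPM in the controls. Under 2000 UMIs both mutants were higher, with 347 and 370 CPM against 231 and 237 CPM. These shallow bins held few UMIs of Neat1 and no intervals were computed for them, so the part of counting error was not tested. In glucagon-high cells Neat1 did not pass (−0.80 ± 0.36, SE, edgeR adjusted p = 0.571). In mutant 2, cells with at least 3 Atf4 counts and cells with none had a ratio of 0.940 (0.818 to 1.08). Genes similar to it were Pdia6 (r = 0.869) and Sdf2l1 (0.832), which serve protein folding in the endoplasmic reticulum.

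Malat1, the neighbour of Neat1, had a different pattern over the classes. Glucagon-high cells held 174 and 187 CPM in the mutants and 140 and 165 CPM in the controls. Insulin-high cells held 128 and 127 CPM in the mutants and 97.3 and 136 CPM in the controls. The log2 differences from insulin-high cells were 0.19 ± 0.13 in glucagon-high, −1.03 ± 0.36 in somatostatin-high and 0.42 ± 0.21 in PP-high cells (SE), the second from 15 UMIs in all and −0.48 ± 0.17 by the largest hormone.

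Between the groups Malat1 had a log2 change of 0.01 ± 0.15 in insulin-high cells (SE), where the groups overlapped. It did not pass in glucagon-high cells (0.22 ± 0.19, SE, edgeR adjusted p = 0.806) or in PP-high cells (0.73 ± 0.43, SE, edgeR adjusted p = 0.996, 0.0708% of 1413 genes called). In mutant 2 the ratio of cells with at least 3 Atf4 counts to cells with none was 0.806 (0.696 to 0.931). Among cells with a Y-linked count and no Xist it was 0.716 (0.585 to 0.879). The cells with at least 3 Atf4 counts were also the deeper ones, and the part of depth was not tested. The genes most similar to Malat1 were Rbpms (r = 0.917), Vasp (0.907) and Appbp2 (0.901). No gene of the 6 passed the filter on low counts in somatostatin-high cells, where edgeR called 0 of 553 genes, 0% of them, with 41 at an unadjusted p under 0.05, and DESeq2 called 0.

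Malat1 and Neat1 took a larger share of the UMIs in shallow insulin-high cells. Insulin-high cells under 2000 UMIs held Malat1 at 285 and 219 CPM in the mutants and 154 and 364 CPM in the controls. Those with 16000 UMIs or more held 122 and 139 CPM in the mutants and 104 and 132 CPM in the controls. Malat1 was thus higher in the shallow cells of 4 of 4 samples, by a ratio of the means of 2.06, from 13 to 23 UMIs per shallow bin. Neat1 stood at 347 and 370 CPM in shallow mutant cells and 231 and 237 CPM in shallow control cells, against 110 and 136 CPM in deep mutant cells and 174 and 152 CPM in deep control cells. Its ratio was 2.07, also from few UMIs per shallow bin.

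Glucagon-high cells did not share one direction. Between 2000 and 4000 UMIs they held Malat1 at 131 and 184 CPM in the mutants and 179 and 146 CPM in the controls. Between 4000 and 8000 UMIs they held 349.8 and 183 CPM in the mutants and 165 and 161 CPM in the controls. Malat1 was thus higher in the deeper bin in mutant 1 and control 2. Neat1 stood at 26.2 and 12.7 CPM in the shallower bin of the mutants and 42.6 and 84.9 CPM in that of the controls, against 26.2 and 34.7 CPM in the deeper bin of the mutants and 41.3 and 32.2 CPM in that of the controls, from 2 to 11 UMIs each.

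In insulin-high cells A330008L17Rik went the other way from Malat1 in the mutants, with 37.2 and 50.5 CPM in cells under 2000 UMIs, from 3 UMIs each, and 118 and 96.3 CPM in deep ones. The D030068K23Rik ratio was 1.64, that of Gm6999 0.649 and that of Gm17660 0.615. These are ratios of the means, and single samples went both ways. Sample by sample, Gm6999 had ratios of 0.445 (mutant 1), 1.03 (mutant 2), 1.24 (control 1) and 0 (control 2). In that order Gm17660 had 1.39, 0.654, 0.821 and 0, while D030068K23Rik had 0, 1.39, 1.78 and 1.69. A ratio of 0 means no count in the shallow cells. No trend with depth is read from these ratios. By gene number, insulin-high cells with 500 to 1000 genes held Malat1 at 295 and 225 CPM in the mutants and 143 and 265 CPM in the controls, against 118 and 130 CPM in the mutants and 98.1 and 130 CPM in the controls with 3000 genes or more. Mitochondrial counts made up 5.12 and 3.76% of UMIs in shallow mutant cells and 5.16 and 2.61% in shallow control cells, against 2.86 and 2.50% in deep mutant and 3.63 and 2.17% in deep control cells. Hormones made up 45.5 to 52.0% in the shallow bins and 30.5 to 34.0% in the deep ones. Their part was not tested. Per UMI of other genes the Malat1 ratio was 2.74, and taking out hormone UMIs can only raise it where their share is larger in shallow cells.

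**Figure D4:**
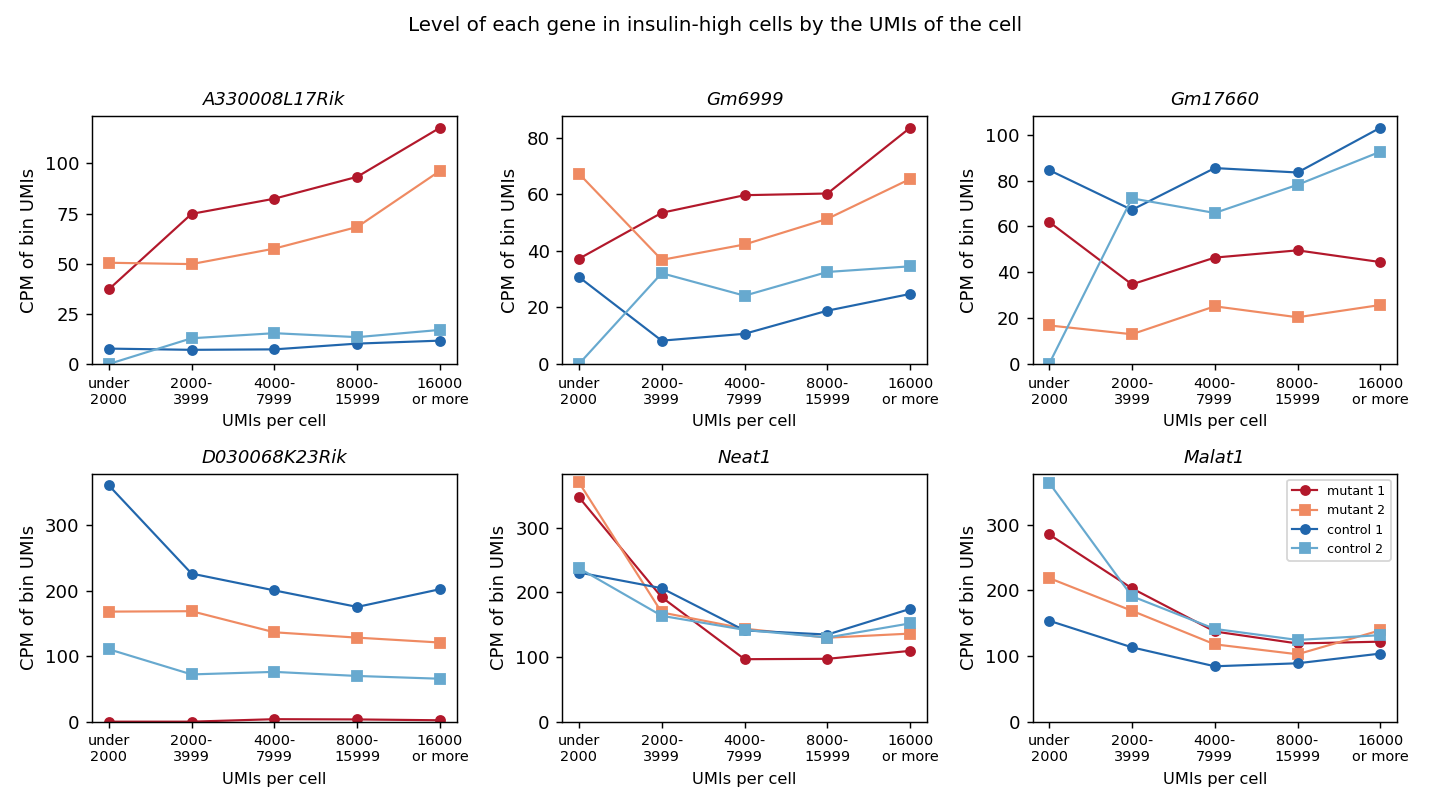
Level in CPM of each gene in insulin-high cells by bins of UMIs per cell, with 1 line per sample. Malat1 and Neat1 are highest under 2000 UMIs in all 4 samples, and A330008L17Rik of both mutants is highest at 16000 UMIs or more.

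Other long noncoding RNAs were counted beside the 6. Of 851 annotated ones tested in insulin-high cells 10 were higher and 1 lower in mutants, 1.29% against 0.744% of all genes, listed genes included. Snhg15 and Pvt1, host genes of small RNAs, and the imprinted transcript Airn rose in mutants, with log2 changes of 1.59 ± 0.23, 1.67 ± 0.24 and 0.84 ± 0.13 (SE, edgeR adjusted p = 0.0256, 0.0282 and 0.0291), the 3 that passed of 38 in a list of known ones. Of 7104 genes tested between classes, 47% passed in glucagon-high against insulin-high cells, 22.8% higher and 24.2% lower. In somatostatin-high and PP-high against insulin-high cells 14.9% and 18.3% passed, and by the largest hormone 30.8% of 8758 in somatostatin-high cells. Of 115 annotated long noncoding RNAs 39 were higher and 18 lower in glucagon-high cells, 49.6% and near the share of all genes. Among them Dbpht2 had the lowest p, with 199 and 191 CPM in mutant and 159 and 302 CPM in control glucagon-high cells, against 6.16 and 5.74 CPM in mutant and 7.06 and 7.18 CPM in control insulin-high cells (4.73 ± 0.16, SE, edgeR adjusted p = 7.14e-47).

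No gene for the proteins of these nuclear bodies passed between the groups in insulin-high cells: edgeR called 0 of 20 paraspeckle, 0 of 28 nuclear speckle and 0 of 8 triple-helix and nuclear decay genes, with 3, 4 and 1 at an unadjusted p under 0.05. Over all 13435 genes 0.744% were called and 1908 had an unadjusted p under 0.05. At that share lists this short can hold 0 calls whether or not they differ from other genes. Their median log2 changes were −0.14, 0.06 and 0.17, against 0.01 over all genes. In glucagon-high against insulin-high cells 6 of 20 paraspeckle genes were higher and 0 lower, 30% called against 47% of all genes and 22.8% of all genes higher, among them Cpsf6 (0.54 ± 0.15) and Nono (0.43 ± 0.13, SE, edgeR adjusted p = 0.00119 and 0.00480), while Neat1 had the opposite sign. Of 27 nuclear speckle genes 6 were higher and 0 lower, 22.2% and thus at the 22.8% of all genes, among them the splicing kinase gene Clk1 (0.78 ± 0.12) and the splicing factor gene Tra2a (0.63 ± 0.13). In somatostatin-high against insulin-high cells 1 of 27 nuclear speckle genes passed, 3.70% and thus below the 14.9% of all genes. It was Clk1, which was lower (−1.26 ± 0.43, SE, edgeR adjusted p = 0.0328). Its levels there, 67.4 and 37.0 CPM in the mutants and 67.8 and 30.4 CPM in the controls, came from 9 to 13 cells per sample. Of 7 triple-helix and decay genes 4 were higher and 0 lower in glucagon-high cells, 57.1% called against 47% of all genes. The medians were 0.17, 0.16 and 0.49, against 0.00 over all genes.

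Letters of 3 motifs were searched on both strands of RefSeq promoter windows, 250 bases before to 50 after a start, for 5 of the 6 genes. TGATGNAA, a form of the element that Atf4 binds with C/EBP proteins, was found in none of them and in 3.97% of 32851 promoters. The p53 half-site was found in none and in 8.36% of promoters. TGACGT, the core of the cAMP response element, was found at 2 places for Malat1 and 1 for a start of Gm6999, and in 7.51% of promoters.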

How the data were processed

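Single-cell UMI counts of 2 mutant and 2 control samples were used as deposited, as 1 count matrix per sample. The authors aligned reads to mm10 and used Seurat, per the submitters' processing notes, while versions and the counting tool are not given in the sources used here. Human K562 cells were added to the samples, per the labels' protocols. The count table is not normalized.

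The 6 genes and all lists were chosen with earlier results of these data known. Cells of 500 genes or more with a mitochondrial share under 20% were classed by hormone shares, read at the trough of a histogram, and no doublet was removed (Scrublet called 0.400%). The smoothing of that histogram, the largest-hormone classes, the rule naming clusters, the limit of 8000 UMIs and the Xist split were chosen after the data were seen. Sums of each class in each sample entered edgeR 4.0.16 (filterByExpr, TMM, quasi-likelihood, R 4.3.3), with p-values adjusted over all genes tested and a threshold of 0.05, and the code was tested on simulated data. Class differences used 16 sums with the sample as a block. Clusters came from scanpy 1.11.5. Nothing ties p-values to more than the spread between 2 pools per group. Replicates of a group differed beyond sampling noise (chi-square per degree of freedom 9.98 in mutants and 11.7 in controls). Alternatives were DESeq2 1.42.0, other scalings, filters and classes, and each sample left out.

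Named genes are the 6, up to 4 called genes with the lowest p per list, the 3 most similar genes per member (at least 20 CPM on average) and annotated neighbours, of which 1 similar gene is not reported here. Of the lists processed, that of transcripts overlapping rRNA had 1 gene tested in insulin-high cells and 0 called.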

Additional observations from a re-analysis of the deposited data

Results flagged for a closer look

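Barcodes under 500 genes entered none of the main comparisons, and some entered the alternative with at least 300 genes per cell. In barcodes under 500 genes 3 of the 6 genes were higher in both mutants than in both controls. The share of all genes that did so was not computed for these barcodes. In insulin-high cells 47.8% of genes had both mutants on one side of both controls. A330008L17Rik and Gm6999 were chosen on that contrast in the same libraries, and insulin made up 35.2 to 44.5% of UMIs in these barcodes. A330008L17Rik averaged 55.2 CPM in these barcodes of the mutants (63.5 and 46.8 CPM), against 5.5 and 7.0 CPM in those of the controls. Gm6999 averaged 46.5 CPM in the mutants (54.7 and 38.3 CPM), against 10.9 and 12.2 CPM in the controls. Neat1 averaged 224 CPM in the mutants (193 and 255 CPM), against 188 and 169 CPM in the controls.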

How the results depend on the processing

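Of the alternative values of the genes' log2 changes, 307 kept their direction and stayed alike, and 26 kept the direction and no longer passed. Another 18 passed only in the alternative, 17 turned and 4 moved by more than the spread. Alike meant the same side of the threshold. For the groups in insulin-high cells it meant a move under the SD between replicates, with no threshold. Class differences that carry no test above were sorted by the threshold for this count only. Counts of called genes between the groups depended on the setting. In insulin-high cells they were 220 with DESeq2, 54 with no filter on low counts, 66 with at least 1000 genes per cell, 32 with clusters as classes and 158 to 462 with 1 sample left out. In glucagon-high cells they were 18 with library totals, 21 with totals without hormone genes, 11 with DESeq2, 69 with no filter, 33 with at least 1000 and 12 with at least 300 genes per cell, 10 with clusters, 7 without the highest doublet scores, 28 by the largest hormone and 40 to 54 with 1 sample left out. In somatostatin-high cells they were 10 with no filter, 28 with clusters, 4 by the largest hormone and 5 to 14 with 1 sample left out. In PP-high cells they were 0 with DESeq2 and with at least 1000 genes per cell, 9 with no filter, 2 with at least 300 genes per cell, 3 with clusters, 2 by the largest hormone and 8 to 13 with 1 sample left out. Class counts were 5293, 3423 and 2224 with clusters and 2192, 480 and 741 in control samples only for glucagon-high, somatostatin-high and PP-high against insulin-high cells, and 2701 by the largest hormone for somatostatin-high cells. The causes were not tested. With 1 sample left out, the lone sample of a group is assumed to vary like the other group.

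Replicate numbers did not pair the samples (r = −0.0733 over 13435 genes). With the replicate number as a block 94, 1, 0 and 0 genes passed between the groups in insulin-high, glucagon-high, somatostatin-high and PP-high cells, and with the numbers crossed 260, 1, 1 and 2. Gm17660 in glucagon-high cells had an adjusted p of 0.174 in edgeR with the block and 0.113 with the crossed block.

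Small values turned sign. Malat1 between the groups in insulin-high cells was −0.0034 with at least 300 genes per cell, −0.0063 without the highest doublet scores, and −0.17 to 0.22 with 1 sample left out. D030068K23Rik in glucagon-high cells ranged over −5.46 to 0.11. Gm17660 in glucagon-high against insulin-high cells was 0.24 with library totals, 0.025 with at least 1000 and 0.00074 with at least 300 genes per cell, 0.036 with clusters, 0.16 in control samples only, 0.049 by the largest hormone and −0.19 to 0.076 with 1 sample left out. It was 0.058 in somatostatin-high cells by the largest hormone and 0.15 in PP-high cells with library totals. The Malat1 depth ratio was 2.74 without hormone UMIs, and among Y-linked cells of mutant 2 the Atf4 ratio was 1.30 for Gm6999 and 0.815 for Neat1. The somatostatin-high and PP-high classes held few cells and few UMIs, and the parts of both cannot be told apart.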
